A study of Mus musculus with 4 samples.

Results

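The genes of mitochondrial and peroxisomal fatty acid beta-oxidation were followed in the livers of food-deprived and control C57BL/6J mice, in mothers and in fetuses. The 36 genes were chosen as enzymes, carriers and membrane proteins of these pathways, 13 of them peroxisomal, 18 mitochondrial, 4 working in both compartments and 1 a carnitine transporter of the plasma membrane. All 36 were found on the array, with 49 probes of the 41174 that report genes, out of 28784 named genes. Names on the array follow its design, so that Dci stands for Eci1, Peci for Eci2 and Hadhsc, given here as Hadh, for the short-chain hydroxyacyl-CoA dehydrogenase.

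Liver RNA of 4 pools was compared, from food-deprived mothers, control mothers, food-deprived fetuses and control fetuses, each of 5 to 10 animals. Food-deprived RNA was hybridised against control RNA on 2 two-colour arrays per comparison, once with each dye orientation, and both arrays were treated as repeats of 1 pool per condition, which the labels do not settle. Significance was therefore not tested, and the spread between arrays is read as technical. How long food was withheld, the stage of gestation and the sex of the animals are not stated in the labels.

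Fatty acids are broken down by beta-oxidation, a cycle of dehydrogenation, hydration, a second dehydrogenation and thiolytic cleavage that releases acetyl-CoA. In mitochondria, which take up long-chain fatty acids through the carnitine shuttle, the electrons enter the respiratory chain and the acetyl-CoA feeds ketone body synthesis in the fasting liver. Peroxisomes shorten very-long-chain, branched and dicarboxylic fatty acids with an oxidase that makes hydrogen peroxide in place of the first dehydrogenase. Many of these genes are targets of the fatty acid receptor PPARA, which is active in the fasting liver of adult mice.

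Paired values are log2 ratios, food-deprived over control, of first and second array, unless they are named as levels. Under the 2-fold rule a gene was called if the mean of both arrays reached 2-fold and neither array alone stayed under 1.5-fold that way, and "rose" and "fell" are used only for such genes. A wider rule, the 1.5-fold rule, asked for 1.5-fold in the mean and a smaller change on each array. The SD per array of a gene's log2 ratio over all genes was 0.16 in mothers and 0.15 in fetuses. Between 53.2% and 69.7% of gene spots per array and dye were well above background, and no gene spot was saturated.

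In the maternal liver, 9 of the 36 genes rose after food deprivation and none fell, where 3.43% of the 16147 measured genes were called, 1.55% higher and 1.88% lower. The median log2 ratio was 0.68 over the 36 genes and -0.01 over all genes. With the 1.5-fold rule 19 were higher and 3 lower, beside 4.34% and 5.54% of all genes. In the fetal liver, 34 of the genes were measured on both arrays and 1 of them rose, where 0.737% of the 18054 measured genes were called. Here 26 of the 34 lay above 0 on both arrays and 1 lay below 0 on both, beside 32% and 30.9% of all genes. The median was 0.21 against 0.00 over all genes, while 10 measured hepatocyte markers had a fetal median of 0.23. Of the 34 genes 8 passed the 1.5-fold rule, all higher, beside 1.78% higher and 0.908% lower of all genes.

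**Figure D1:**
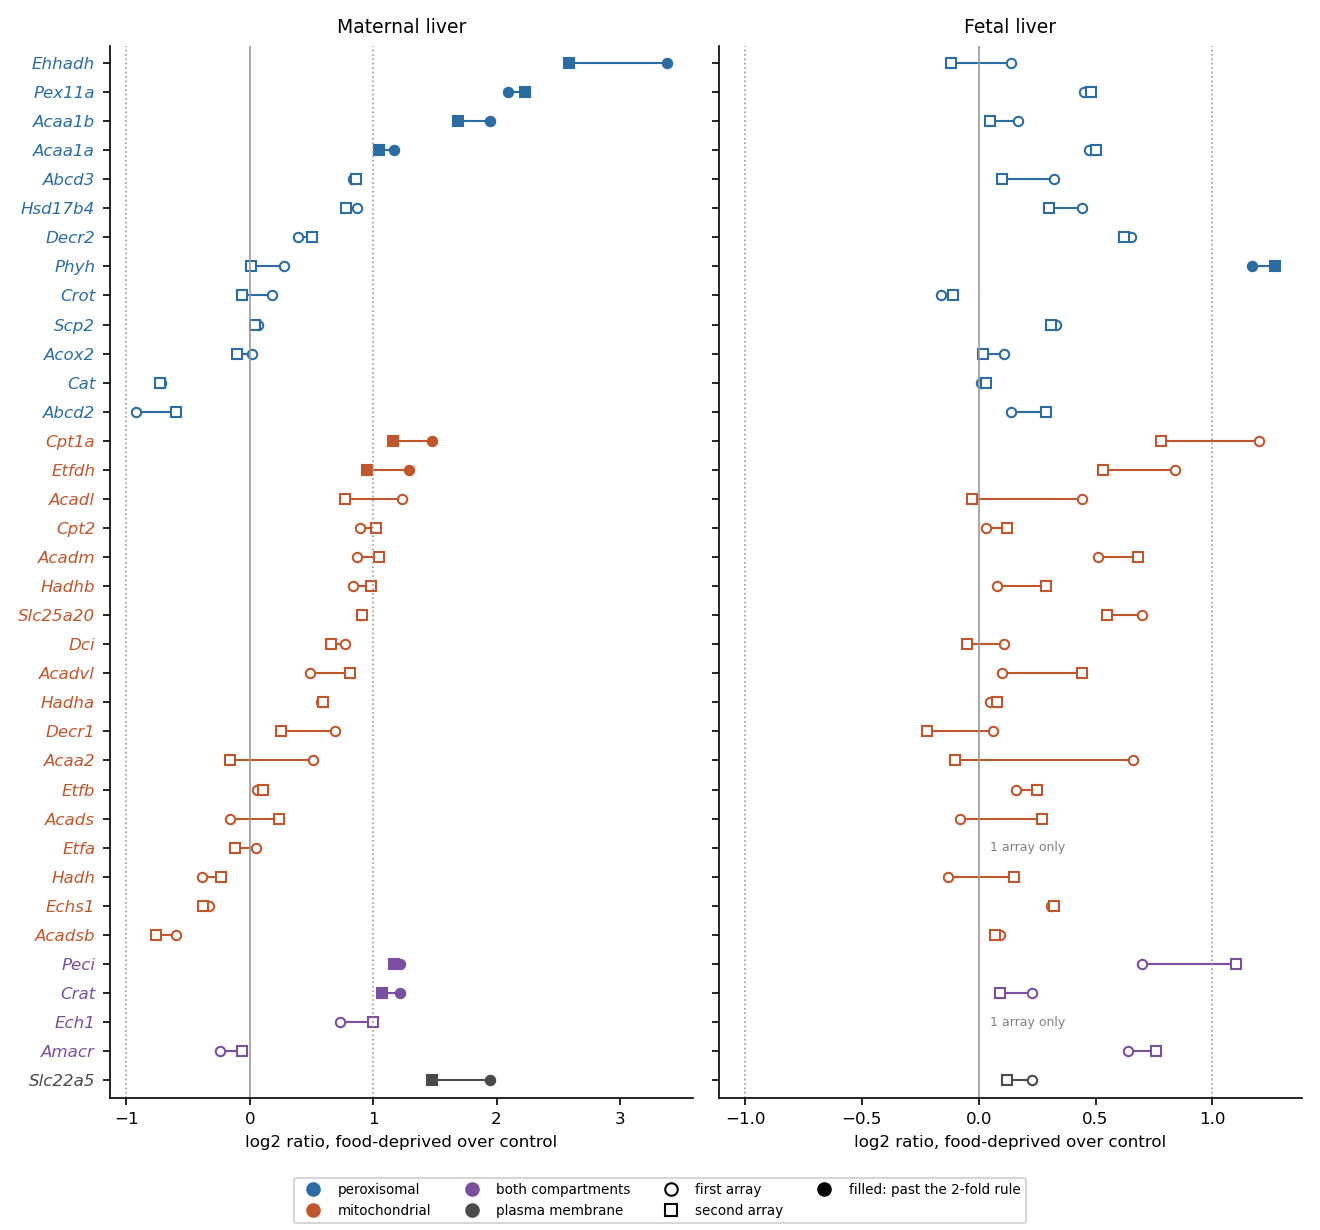
Log2 ratio of food-deprived over control liver of each gene in mothers (left) and fetuses (right), on the first (circles) and second array (squares) of each comparison, joined by a line; dotted lines mark a 2-fold change and filled points the genes past the 2-fold rule. The panels have different scales: maternal means reach 2.98 (Ehhadh) and fetal means 1.22 (Phyh), and the genes with the largest ratio differ between them.

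Ehhadh, the peroxisomal bifunctional enzyme that carries out the hydration and the second dehydrogenation, had the largest maternal ratio of the 36. Its normalised log2 level was 15.66 and 16.39 in food-deprived mothers, against 12.29 and 13.79 in control mothers, and it rose 7.92-fold (3.38 and 2.59), rank 14 of all 16147 genes. The levels of the control pool differed more between the arrays than those of the other genes. In fetuses Ehhadh was at 11.40 and 11.13 with food deprivation, against 11.25 and 11.25 in controls, log2 ratios of 0.14 and -0.12 on either side of 0.

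Phyh, the phytanoyl-CoA hydroxylase that starts the alpha-oxidation of branched fatty acids, showed the opposite arrangement. It was the fetal gene past the 2-fold rule, at a level of 14.14 and 14.29 in food-deprived fetuses against 12.96 and 13.02 in control fetuses, a 2.33-fold rise (1.17 and 1.27). In mothers its level was 14.95 and 14.70 with food deprivation, against 14.66 and 14.70 in controls (0.28 and 0.01). The 250 bases upstream of the RefSeq start of these genes, which lie at the ends of the contrast between mother and fetus, are shown 5′ to 3′ on the gene's strand from assembly GRCm38.p6. Capitals mark matches on either strand to the half-site AGGTCA, which nuclear receptors such as PPARA bind, to GGGCGG, the motif of the transcription factor SP1, to CCAAT, the motif of the factor NFY, and to TATAAA, the motif of the TATA-binding protein.
Ehhadh, chr16:21787835-21788084, minus strand: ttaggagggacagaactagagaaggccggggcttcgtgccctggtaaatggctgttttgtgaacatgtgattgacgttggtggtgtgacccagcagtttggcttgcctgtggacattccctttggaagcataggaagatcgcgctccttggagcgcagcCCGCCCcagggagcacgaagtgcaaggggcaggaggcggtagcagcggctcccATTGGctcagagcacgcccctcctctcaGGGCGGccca
Phyh, chr2:4918746-4918995, plus strand: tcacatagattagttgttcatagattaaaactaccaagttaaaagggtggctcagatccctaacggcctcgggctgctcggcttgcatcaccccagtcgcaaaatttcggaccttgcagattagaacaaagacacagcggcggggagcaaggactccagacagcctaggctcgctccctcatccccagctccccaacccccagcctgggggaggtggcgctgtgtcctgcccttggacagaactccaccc
The Ehhadh window holds 2 matches to GGGCGG and 1 to CCAAT, and the Phyh window none of the 4 motifs. Both are GC-rich, at 60.4% and 56.4%, where the median of all promoters in the table was 52.4%. In the full window, which adds the 50 bases after the start, Phyh has an AGGTCA match.

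Promoters were found for 30 of the 36 genes in that table. GGGCGG was in 23 of the 30 full windows, in 7 of 11 peroxisomal and 13 of 16 mitochondrial genes, and in 38.2% of the 27025 genes with a promoter. AGGTCA was in 7 of the 30 (Cpt1a, Acadm, Acadvl, Echs1, Scp2, Phyh and Cat) and in 18.1% of all genes, CCAAT in 12 of the 30 and in 41.1%, and TATAAA in none of the 30 and in 15.7%. A DR1, a direct repeat of AGGNCA with any 1 base between the copies, was in none of the 30 windows and in 0.451% of all genes. Other spellings of the repeat and sequence outside the windows were not searched. With so rare a match, its absence here does not show that a gene lacks such a site. An AGGTCA within such a repeat counts for both motifs.

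Among the other peroxisomal genes, Pex11a, a membrane protein that elongates and divides peroxisomes, was at 14.58 and 14.85 in food-deprived mothers against 12.49 and 12.62 in control mothers and rose 4.47-fold (2.09 and 2.23). Its probe is spotted 10 times on each array, and the SD over the spots used was 0.04 and 0.06 on the maternal arrays, which is the spread within an array. In fetuses Pex11a was at 11.07 and 11.06 with food deprivation, against 10.62 and 10.59 in controls (0.45 and 0.48), which passed neither rule.

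The peroxisomal 3-ketoacyl-CoA thiolases, which carry out the last step of the cycle, are encoded by a pair of close copies in the mouse. Acaa1b was at 15.21 and 15.30 in food-deprived mothers against 13.26 and 13.61 in control mothers and rose 3.53-fold (1.95 and 1.69), and Acaa1a rose 2.16-fold by its brightest probe (1.17 and 1.05). In fetuses the log2 ratios were 0.17 and 0.05 for Acaa1b and, by its brightest probe, 0.47 and 0.50 for Acaa1a. The upstream 250 bases of the copies, given in the same way, show how far they differ in front of the genes.
Acaa1a, chr9:119341044-119341293, plus strand: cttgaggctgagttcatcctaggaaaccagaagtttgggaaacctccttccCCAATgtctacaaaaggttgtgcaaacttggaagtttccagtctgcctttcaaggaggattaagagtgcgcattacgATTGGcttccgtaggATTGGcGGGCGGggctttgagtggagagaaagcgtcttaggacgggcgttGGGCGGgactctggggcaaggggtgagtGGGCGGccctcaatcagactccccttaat
Acaa1b, chr9:119157094-119157343, minus strand: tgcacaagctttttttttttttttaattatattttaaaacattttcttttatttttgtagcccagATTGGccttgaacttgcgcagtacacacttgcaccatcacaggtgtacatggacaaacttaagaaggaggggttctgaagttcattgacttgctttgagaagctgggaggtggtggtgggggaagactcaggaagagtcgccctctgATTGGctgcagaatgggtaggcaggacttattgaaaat
The Acaa1a window holds 3 matches to GGGCGG and 3 to CCAAT, at 53.6% GC, and the Acaa1b window 2 matches to CCAAT and none to GGGCGG, at 41.6% GC.

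The probes of the thiolases do not all tell the copies apart. The array's annotation gives 1 probe to both genes and 2 further probes to Acaa1a, and the sequence of the dimmest Acaa1a probe is given here with its position in the scanner files.
Dimmest Acaa1a probe, mm7 chr9:119026729-119027949: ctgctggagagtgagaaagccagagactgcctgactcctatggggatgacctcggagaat
The shared probe had maternal log2 ratios of 1.60 and 1.92 and the dimmest Acaa1a probe 1.39 and 1.94, between the brightest Acaa1a probe and Acaa1b in the mean. In fetuses the shared probe had -0.10 and 0.14 and the dimmest Acaa1a probe -0.05 and 0.39, below the brightest Acaa1a probe on both arrays. In the control pools these probes were higher in mothers than in fetuses by 2.36 and 2.30 on the log2 scale, against 0.82 for the brightest Acaa1a probe and 2.84 for the Acaa1b probe. Cross-hybridisation between the copies was not tested, and the values of Acaa1a and of Acaa1b, which rests on 1 probe, are therefore uncertain.

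A further group of 3 peroxisomal genes lay between the 1.5-fold and the 2-fold line in mothers or above the 1.5-fold line in fetuses. Abcd3, an importer of long-chain and branched acyl-CoA into peroxisomes, had maternal log2 ratios of 0.84 and 0.86 by its second-brightest probe, since the brightest was flagged on the second array and gave 1.39 on the first, and fetal ratios of 0.32 and 0.10. Hsd17b4, the D-bifunctional protein for branched and very-long-chain substrates, was at 0.87 and 0.78 in mothers and 0.44 and 0.30 in fetuses. Decr2, the peroxisomal dienoyl-CoA reductase, was at 0.39 and 0.50 in mothers and 0.65 and 0.62 in fetuses, where it passed the 1.5-fold rule.

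The remaining peroxisomal genes did not pass the 2-fold rule in either comparison. Acox2, the branched-chain acyl-CoA oxidase that also acts on bile acid intermediates, had mean log2 ratios of -0.04 in mothers and 0.07 in fetuses. Scp2, whose gene gives a thiolase for branched substrates and a sterol carrier protein, was at 0.05 in mothers and 0.32 in fetuses. Crot, which hands medium-chain products of peroxisomes to carnitine, was at 0.06 in mothers and -0.14 in fetuses.

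Cat and Abcd2 lay below 0 on both maternal arrays and passed the 1.5-fold rule in that direction. Cat, the catalase that removes hydrogen peroxide, was at a level of 13.67 and 13.67 in food-deprived mothers, against 14.40 and 14.41 in control mothers (-0.72 and -0.73), and at fetal ratios of 0.01 and 0.03. Abcd2, an importer of very-long-chain acyl-CoA, was at -0.92 and -0.60 in mothers and 0.14 and 0.29 in fetuses by its brightest probe. Its other probe gave -1.49 and -0.90 in mothers and -0.12 and -0.32 in fetuses, so the probes share the maternal direction and differ in the fetal one.

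Of the mitochondrial genes, 2 of 18 rose in mothers and 0 of 17 in fetuses, beside 1.55% and 0.471% of all genes. Cpt1a, the outer-membrane carnitine palmitoyltransferase that controls the entry of long-chain fatty acids, was at 13.84 and 13.74 in food-deprived mothers against 12.36 and 12.58 in control mothers and rose 2.50-fold (1.48 and 1.16). In fetuses it was at 12.34 and 12.20 with food deprivation, against 11.13 and 11.42 in controls, a mean of 1.98-fold (1.20 and 0.78) just under the 2-fold rule. Its 10 spots per array had SDs of 0.05 to 0.09, smaller than the gap between the arrays, and its second probe gave 1.39 and 1.23 in mothers and 0.72 and 0.73 in fetuses.

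Etfdh, which passes electrons from the flavoprotein of the dehydrogenases to ubiquinone, rose 2.18-fold in mothers (1.29 and 0.95) and had 0.84 and 0.53 in fetuses. By its second probe it was at 0.93 and 0.51 in mothers, below the 2-fold rule. The subunits of that flavoprotein lay near 0 in mothers, Etfa at 0.05 and -0.12 and Etfb at 0.06 and 0.11, and in fetuses at -0.13 for Etfa, on the second array alone since its spot was flagged on the first, and at 0.16 and 0.25 for Etfb.

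The other steps of the carnitine route lay above 0 in mothers. Slc22a5, the plasma membrane carnitine transporter, was at 10.83 and 10.44 in food-deprived mothers against 8.88 and 8.96 in control mothers and rose 3.29-fold (1.95 and 1.48), while its fetal ratios were 0.23 and 0.12. Cpt2, the inner-membrane transferase, had 0.89 and 1.02 in mothers and 0.03 and 0.12 in fetuses, and Slc25a20, the carnitine-acylcarnitine carrier between them, 0.90 and 0.91 in mothers and 0.70 and 0.55 in fetuses. The median of Cpt1a, Cpt2, Slc25a20 and Slc22a5 was 1.14 in mothers and 0.40 in fetuses.

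The acyl-CoA dehydrogenases of the first step did not move as one. In mothers Acadl, for long chains, had 1.23 and 0.77, Acadm, for medium chains, 0.87 and 1.05, and Acadvl, for very long chains, 0.49 and 0.81. Acads, for short chains, lay on either side of 0 (-0.16 and 0.24), and Acadsb, for the branched chains that come from isoleucine, lay below it (-0.60 and -0.76) and passed the 1.5-fold rule in that direction. In fetuses Acadm was the dehydrogenase past the 1.5-fold rule (0.51 and 0.68), and the means of the other 4 lay between 0.08 and 0.27.

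The later mitochondrial steps also differed among themselves. Hadha and Hadhb, the subunits of the trifunctional protein for long chains, had maternal ratios of 0.58 and 0.59 and of 0.84 and 0.98, with fetal means of 0.07 and 0.18. Echs1, the short-chain hydratase, had -0.33 and -0.38 in mothers and 0.31 and 0.32 in fetuses, and Hadh -0.39 and -0.23 in mothers and -0.13 and 0.15 in fetuses. Acaa2, the mitochondrial thiolase, had 0.51 and -0.16 in mothers and 0.66 and -0.10 in fetuses: the sign changed between the arrays in both, the SD over its 10 spots per array being 0.05 to 0.07, and no direction is read from it. Dye orientation, array and pooled sample change together here and cannot be told apart.

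Of the auxiliary enzymes for unsaturated fatty acids, Dci, the mitochondrial enoyl-CoA isomerase, had 0.77 and 0.66 in mothers and 0.11 and -0.05 in fetuses. Decr1, the mitochondrial dienoyl-CoA reductase, had 0.69 and 0.25 in mothers and a fetal mean of -0.08, the lowest of the mitochondrial genes measured on both arrays. Among genes of both compartments, Peci, an enoyl-CoA isomerase, rose 2.29-fold in mothers (1.22 and 1.17) and had 0.70 and 1.10 in fetuses. Crat, the carnitine acetyltransferase, rose 2.21-fold in mothers (1.22 and 1.07) and had 0.23 and 0.09 in fetuses.

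Ech1, a dienoyl-CoA isomerase, had 0.73 and 1.00 in mothers and 0.57 on the second fetal array, its spot on the first being flagged. Amacr, the racemase that prepares branched fatty acids for oxidation, had maternal ratios of -0.24 and -0.06 and passed the 1.5-fold rule in fetuses (0.64 and 0.76). Its level was 12.57 and 12.81 in food-deprived fetuses, against 11.94 and 12.05 in control fetuses. Phyh, Decr2 and Amacr passed the 1.5-fold rule in fetuses and missed it in mothers, and the maternal minus fetal difference was -0.87 and -0.82 for Amacr and -0.26 and -0.12 for Decr2.

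Set against each other, the compartments had close medians and unequal spread in mothers. The median log2 ratio was 0.44 for the peroxisomal and 0.62 for the mitochondrial genes, and the SD over genes 1.11 and 0.58. The order of the medians depends on how the 4 genes of both compartments are counted: with them joined to the peroxisomal genes, that median was 0.83. Of the peroxisomal genes 4 of 13 rose, and of the mitochondrial genes 2 of 18, beside 1.55% of all genes. The peroxisomal genes held both the highest and the lowest mean of the 36 (Ehhadh at 2.98 and Abcd2 at -0.76). In fetuses the medians were 0.22 for the peroxisomal and 0.20 for the mitochondrial genes.

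**Figure D2:**
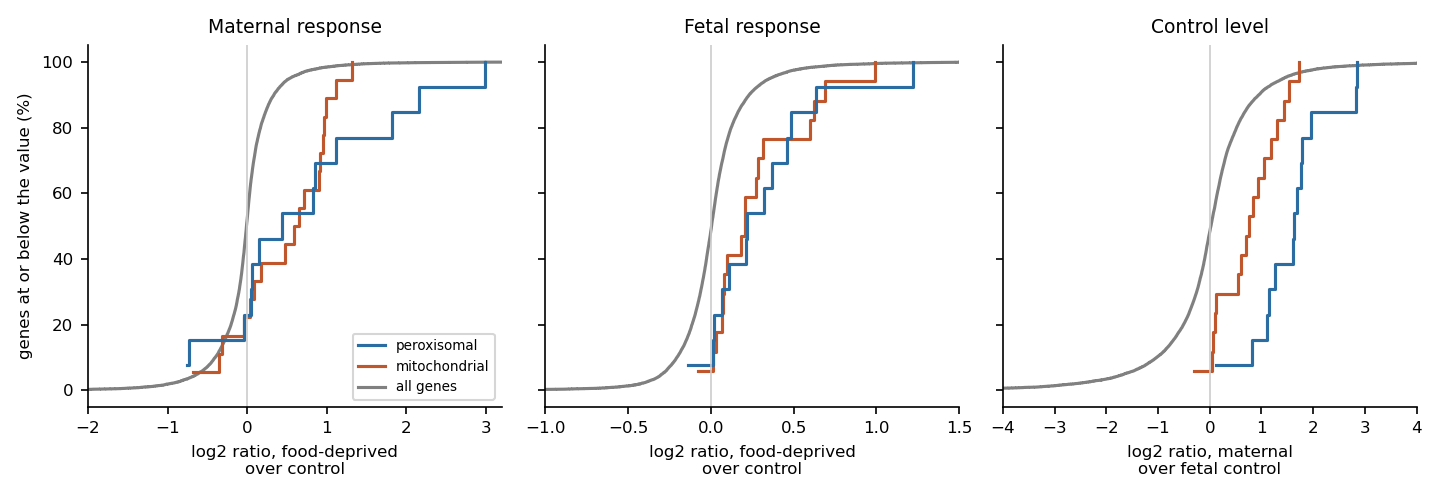
Share of genes (percent) at or below each log2 ratio, for the peroxisomal (blue) and mitochondrial genes (orange) and for all measured genes (grey), in the maternal response, the fetal response and the maternal over fetal level of the control pools. The peroxisomal curve has the longer right tail in the maternal response, both classes lie close together right of all genes in the fetal response, and the peroxisomal curve lies furthest right in the control level, with a median of 1.63 against 0.76.

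Levels of cell type markers were read in the same pools, and their part in the responses was not tested. Of 8 Kupffer cell and macrophage markers, 2 fell in mothers, Adgre1 (-1.16 and -1.09) and Cd5l (-1.01 and -1.05), beside 1.88% of all genes. Below 0 on both maternal arrays were 7 of the 8, beside 38.7% of all genes, and Marco lay on either side of 0 (-0.12 and 0.31). The summed normalised intensity of the 8 was 12157 to 13373 in food-deprived mothers against 20409 to 22177 in control mothers. Of 10 measured hepatocyte markers 1 fell, the transthyretin gene Ttr (-1.74 and -1.92), while the albumin gene Alb was at 0.53 and 0.11, and the median was 0.19. The summed levels of the hepatocyte markers overlapped between the pools, at 350725 to 398519 in food-deprived and 297566 to 360455 in control mothers. In fetuses the hepatocyte markers had a median of 0.23, close to the 0.21 of the pathway genes, with 4 above 0 on both arrays and 1 below. On the single fetal arrays their medians were 0.48 and -0.04, beside 0.23 and 0.26 for the pathway genes. In fetuses the 12 erythroid markers had a median of -0.21 with none past the rule. Below 0 on both fetal arrays were 7 of them and above 0 on both none, beside 30.9% and 32% of all genes. They summed to 170647 to 218551 with food deprivation against 213564 to 241408 in controls, which overlap. The bright haemoglobin gene Hba-a1 changed sign between the fetal arrays (0.15 and -0.75). Endothelial, stellate and fibroblast, and bile duct markers had maternal medians of -0.17, -0.23 and -0.08, with a rise of Lyve1 (1.17 and 0.86) and a fall of Col3a1 (-1.42 and -1.72) among 14 genes. Of all genes 1.55% rose and 1.88% fell in mothers. None of 4 adipocyte markers (Adipoq, Ucp1, Plin1 and Lep) was well above background in any pool. In RNA of whole liver, fewer cells of a type and less RNA per cell cannot be told apart.

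The difference between the responses, maternal minus fetal on arrays of equal dye orientation, passed the 2-fold rule for 5 of 34 genes, where 2.99% of 15597 genes did. Ehhadh (3.23 and 2.71), Acaa1b (1.78 and 1.64), Pex11a (1.64 and 1.75) and Slc22a5 (1.72 and 1.36) responded more in mothers, and Phyh (-0.89 and -1.27) more in fetuses. Slc22a5 was dim in fetuses, at levels of 7.57 and 7.53 with food deprivation and 7.34 and 7.40 in controls. Its fetal mean of 0.18 became 0.36 with the scanner software's processed values, so the size of its difference is uncertain. None of 17 mitochondrial genes passed the 2-fold rule. The largest mitochondrial differences were those of Cpt2 (0.86 and 0.91) and, in the other direction, Acadsb (-0.69 and -0.83). Cpt1a (0.28 and 0.39 by its brightest probe) and Slc25a20 (0.20 and 0.35) had smaller differences above 0. By its second probe Cpt1a had 1.39 and 1.23 in mothers and 0.72 and 0.73 in fetuses, which lie further apart. Acaa2, whose ratio changed sign between the arrays, had differences of -0.16 and -0.06.

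**Figure D3:**
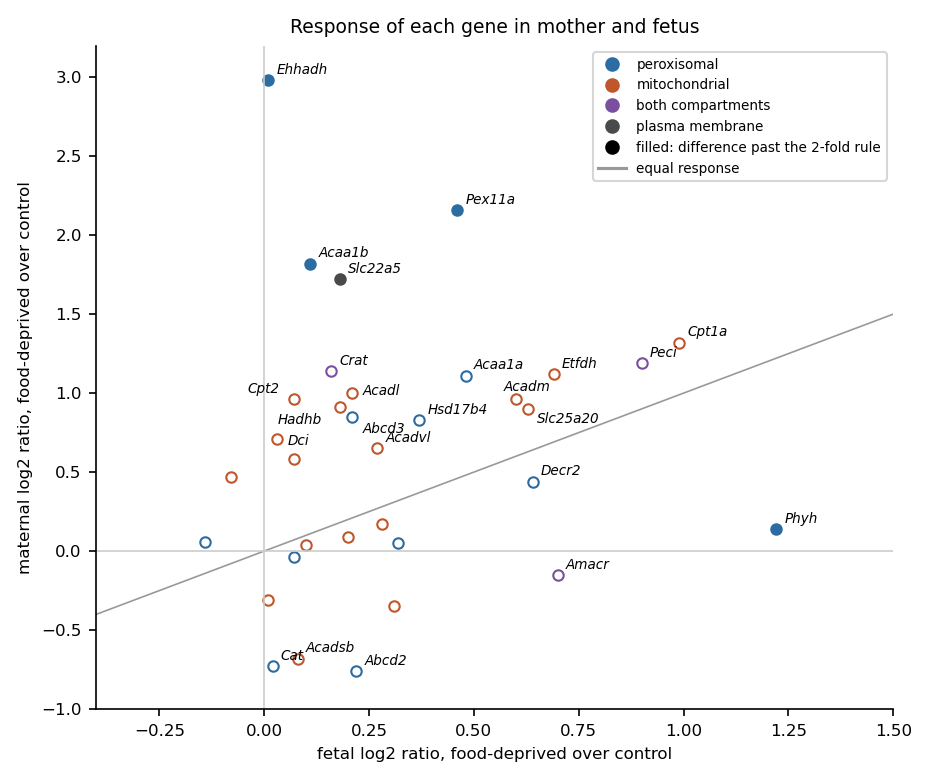
Mean log2 ratio of food-deprived over control liver in mothers (vertical) against fetuses (horizontal) for the 34 genes measured in both, coloured by compartment; the line marks an equal response and filled points a difference past the 2-fold rule. Ehhadh, Pex11a, Acaa1b and Slc22a5 stand above the line near a fetal value of 0 to 0.5, and Phyh stands alone at the right, near 0 in mothers.

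Across the 34 genes, the maternal and fetal ratios had a Pearson correlation of 0.13 and a Spearman correlation of 0.22. These were -0.04 and 0.13 over 13 peroxisomal genes, 0.53 and 0.47 over 17 mitochondrial genes, and 0.37 and 0.28 over 15614 measured genes. The points share the 4 arrays and their dyes, genes are not independent, and the values are a description.

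Of the 36 genes 9 had over 1 measured probe. In mothers the probes of Abcd2, Abcd3, Acaa1a, Cpt1a, Slc22a5, Etfdh, Decr1 and Hadha shared a direction in the mean. Those of Crot gave 0.06 and -0.09, both close to 0. Slc22a5 rose by both of its probes (1.95 and 1.48, and 1.15 and 0.95).

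**Figure D4:**
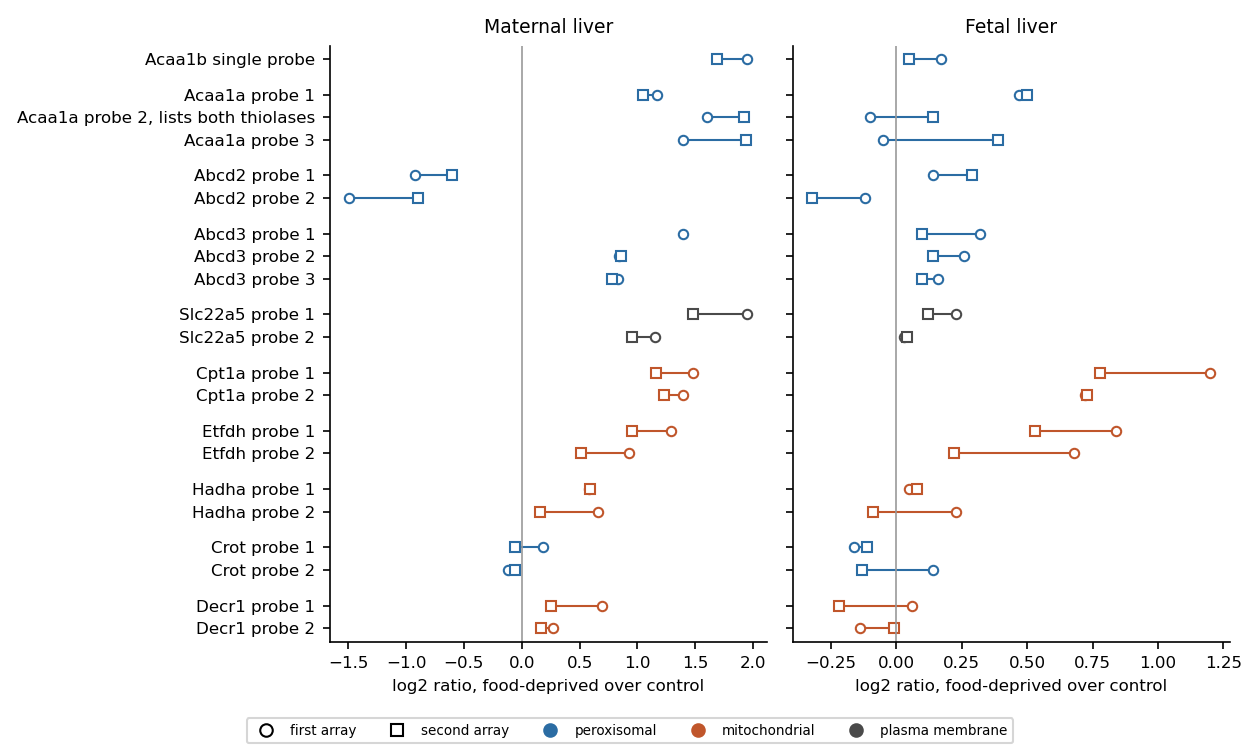
Log2 ratio of food-deprived over control liver for each measured probe of the genes with several probes, and for the single Acaa1b probe, in mothers (left) and fetuses (right), on the first (circles) and second array (squares); probe 1 is the brightest in control mothers. In the mean of both maternal arrays Acaa1a probes 2 and 3 lie nearer to the Acaa1b probe than to the first Acaa1a probe, though on the first array the probe at 1.39 lies nearer to the first Acaa1a probe, at 1.17, and the Abcd2 probes lie on either side of 0 in fetuses.

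The level in the control pools was compared between mothers and fetuses within the same dye, on arrays of 1 slide, so that an array effect beyond the normalisation cannot be told apart from the difference. Of 34 genes 19 were higher in mothers by the 2-fold rule and none lower, where 19.3% of 18084 genes were called, 9.06% higher and 10.3% lower. The median log2 difference was 1.12 over the 34 genes and 0.02 over all genes. By compartment, 11 of 13 peroxisomal and 6 of 17 mitochondrial genes were higher, with medians of 1.63 and 0.76. Among the further genes of the pathway listed below, 7 of 12 other mitochondrial and 8 of 19 other peroxisomal genes were higher. Their medians were 1.11 and 0.92, the reverse order of the compartments. Those lists reach beyond the beta-oxidation cycle, for example to hydroxyacid oxidases, so they are not a like comparison with the 34 genes. A difference at 0 on this scale means an equal share of the normalised signal, not an equal amount per cell.

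**Figure D5:**
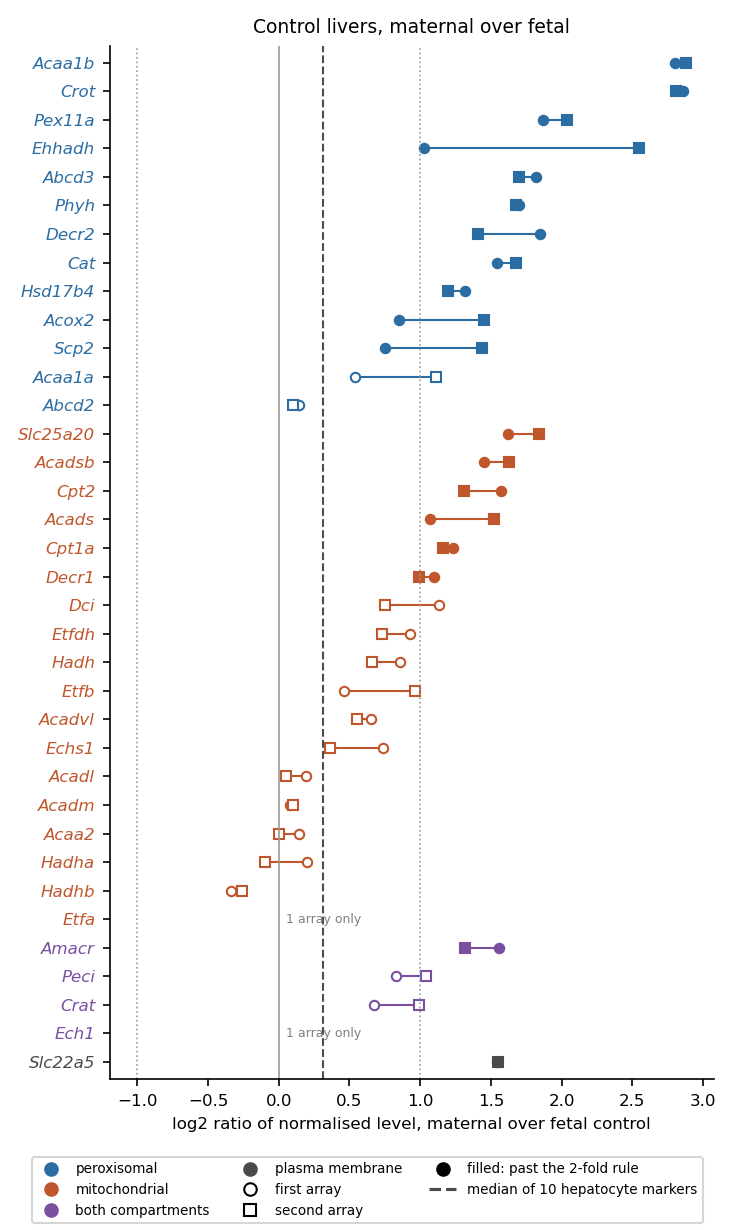
Log2 ratio of the normalised level in control mothers over control fetuses for each gene, within Cy3 (circles, first arrays) and within Cy5 (squares, second arrays), with filled points past the 2-fold rule; the dashed line is the median of 10 hepatocyte markers, at 0.31. All 13 peroxisomal genes lie above 0 in both dyes, while Acadm, Acadl, Acaa2, Hadha and Hadhb lie within 0.35 of it.

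Crot and Acaa1b had the largest gaps. The level of Crot was 14.12 and 14.11 in control mothers, against 11.26 and 11.30 in control fetuses, 7.14-fold higher in mothers, and that of Acaa1b was 13.26 and 13.61 in control mothers against 10.46 and 10.73 in control fetuses, 7.15-fold higher. Pex11a was 3.87-fold and Phyh 3.23-fold higher in control mothers. Ehhadh was higher by 1.03 in Cy3 and 2.55 in Cy5, the widest gap between dyes of the 34, so the size of its difference is uncertain.

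The other called peroxisomal genes had mean log2 gaps of 1.76 (Abcd3), 1.63 (Decr2), 1.61 (Cat), 1.26 (Hsd17b4), 1.15 (Acox2) and 1.10 (Scp2). Below the rule by their brightest probes were Acaa1a, at 0.82, and Abcd2, at 0.12. The other probes gave 2.36 (shared with Acaa1b) and 2.30 for Acaa1a, above the 2-fold line, and 0.74 for Abcd2. Of the mitochondrial genes, Slc25a20 (1.62 and 1.84), Acadsb (1.45 and 1.63), Cpt2 (1.57 and 1.31), Acads (1.07 and 1.52), Cpt1a (1.23 and 1.16) and Decr1 (1.10 and 0.99) were higher in mothers by the rule. The dehydrogenases Acadm (0.08 and 0.10) and Acadl (0.19 and 0.05), the thiolase Acaa2 (0.14 and 0.00) and the trifunctional protein subunits Hadha (0.20 and -0.10) and Hadhb (-0.34 and -0.26) were at close to the same level in control mothers and control fetuses. Amacr (1.56 and 1.32) and Slc22a5 (1.54 and 1.55 by its brightest probe) were higher in mothers as well. The second Slc22a5 probe had a mean gap of 0.60, below the rule.

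Blood cell markers differed between these pools in the opposite direction, and their part in the level differences was not tested. All 12 erythroid markers were lower in control mothers, with summed intensities of 33279 to 40094 in control mothers against 213564 to 241408 in control fetuses, 5 of the 12 not being well above background in control mothers. The haemoglobin gene Hba-a1, among the brightest, stood at -2.56 and -2.95. All 6 measured granulocyte markers were lower as well, with S100a9 at -5.63 and -5.65, and so were the 5 markers of fetal hepatocytes, with the alpha-fetoprotein gene Afp at -6.79 and -6.98. Elane, Ngp and Dlk1 of these lists were not well above background in control mothers, and no size is given for the lists as a whole. The 10 measured hepatocyte markers had a median of 0.31, 2 of them higher by the rule, and summed to 297566 to 360455 in control mothers against 234284 to 327910 in control fetuses.

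In the food-deprived pools the same gap, maternal over fetal, had a median of 1.45 over the 13 peroxisomal genes, beside 1.63 in the control pools, and of 0.91 over 17 mitochondrial genes, beside 0.76. It was 4.76 for Ehhadh, 4.55 for Acaa1b and 3.65 for Pex11a, and 0.61 for Phyh, whose gap in the control pools was 1.69. These gaps rest on the same arrays as the responses and add no independent value.

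Of 56 further genes of the pathway, listed as other mitochondrial and peroxisomal enzymes, peroxins and regulators, 3 of 55 measured rose in mothers and 3 fell, and 1 of 56 rose in fetuses (medians 0.15 and 0.25). Of all genes 1.55% were called higher and 1.88% lower in mothers, and 0.471% higher in fetuses. In mothers the short-chain hydroxyacyl-CoA dehydrogenase gene Hsd17b10 (0.94 and 1.31), the peroxisomal membrane protein gene Pxmp4 (1.37 and 0.91) and the peroxin gene Pex16 (1.07 and 1.01) rose. The hydroxyacid oxidase genes Hao2 (-2.87 and -1.64) and Hao1 (-1.67 and -1.57) and Pecr, the peroxisomal trans-2-enoyl-CoA reductase (-1.37 and -1.10), fell.

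In fetuses Ppargc1b, a coactivator of genes of oxidative metabolism, rose (0.91 and 1.14). Ppara, the receptor itself, had 0.31 and -0.03 in mothers and 0.39 and 0.19 in fetuses. Ppargc1a, a related coactivator, had 0.99 and 0.77 in mothers and 1.10 and 0.89 in fetuses, past the 1.5-fold rule in both. The 15 peroxins, which build the organelle, had medians of 0.30 in mothers and 0.26 in fetuses. Their level in the control pools was higher in mothers by the 2-fold rule for 9 of 15 (median 1.07), beside 9.06% of all genes.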

How the data were processed

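Liver RNA was hybridised to 4 two-colour Agilent arrays of 1 slide, and the groups follow the labels. Per the file headers, Agilent Feature Extraction 9.5.1.1 wrote the deposited intensity of each spot and of its local background, on a linear scale, and a log10 ratio of processed signals, red over green; the version in the submitters' processing notes is 9.5.3.1. In the deposited series table the values are rounded ratios of red over green whose sign has no stated meaning, so they were treated as a score and used without sign as an alternative.

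With limma 3.58.1 in R 4.3.3, intensities were corrected by normexp (offset 50) and normalised by loess within each array, giving control spots no weight, and the second array's ratio was turned. For levels the arrays were scaled by the Aquantile method. The offset shrinks the ratios of dim spots. Between 215 and 257 flagged gene spots per array were left out, and spots of a probe were averaged. A probe was measured when either channel was well above background on both arrays of a comparison, and the brightest measured probe stood for its gene. Of 41174 gene probes 22951 were named by accession through a RefSeq table (GRCm38.p6), and 18223 kept the file's name. With the second array's sign unturned no gene passed the 2-fold rule, where 133 fetal and 554 maternal genes passed it when turned.

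The arrays of a comparison were counted as 1 replicate, and their number limits the precision. The calling rule was also run on simulated arrays, whose ratios lay well past or well short of the 2-fold line. That run does not check calls near the line. Every gene of the list is named, and in full those called in any comparison or highest or lowest in their class. The genes, the further lists and these rules were chosen with earlier results of these data known, and 1 gene of the further lists was left out of their counts and is not reported here. Alternatives were the background correction, the scanner software's values, median centring, quantile scaling of levels, the mean over probes, the filter on dim probes, the 1.5-fold rule, single arrays and the series table, plus 1 added after seeing the data, for stained spots.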

Additional observations from a re-analysis of the deposited data

Results flagged for a closer look

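Of the 34 genes measured in both, 5 (14.7%) lay below 0 on both maternal arrays and above 0 on both fetal arrays. None lay the other way round. The shares were 9.96% and 7.27% over 15597 genes. Since 1 of the 34 lay below 0 on both fetal arrays, the second count had little room. Such a difference between mother and fetus was not tested. The mean maternal minus fetal log2 difference was -0.98 for Abcd2, whose second probe lay below 0 in fetuses too, -0.85 for Amacr, -0.76 for Acadsb, -0.75 for Cat, whose fetal ratios were 0.01 and 0.03, and -0.67 for Echs1. None of the 5 passed the 2-fold rule, and their fetal means lay between 0.02 and 0.70.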

How the results depend on the processing

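With the arrays treated as repeats of 1 pool per condition, which the labels do not settle, no alternative shows the spread between animals. No called value changed sign under the alternatives run. The fetal count of 1 became 2 with the scanner software's processed values and with the deposited series table, 0 with median centring and 8 with the 1.5-fold rule, and was 2 on either array alone. The maternal count of 9 became 1 with median centring and 22 with the 1.5-fold rule (19 higher, 3 lower), and the count of 5 differences between mother and fetus became 2 and 17. Under median centring the maternal median of the genes was 2.19 on the first array and -0.89 on the second, so that most failed the demand on each array while the mean kept its size (2.06 for Pex11a). There the fetal median of the genes was 0.46, against 0.21 with loess, and that of the differences between mother and fetus 0.00, against 0.35. The median of all genes moved by under 0.1 in the mean and lay at 0.77 and -0.77 on the single maternal arrays. Over all genes the maternal and fetal counts of 554 and 133 became 129 and 91 with median centring and 1472 and 405 with the processed values. Ehhadh kept its maternal call and its difference in all alternatives run, and Phyh lost its fetal call with median centring alone. Etfdh lost its maternal call with the mean over probes and on the second array alone, and Phyh its difference between mother and fetus on the first array alone.

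The peroxisomal minus mitochondrial median, taken on single arrays over the genes and brightest probes measured on that array, was 0.05 to 0.20 in fetuses (0.01 in the mean of both), -0.25 to -0.12 in mothers (-0.17), where it became 0.21 with the genes of both compartments counted as peroxisomal, and 0.46 to 0.99 in the control level (0.87). Of the 19 genes higher in control mothers 16 kept the call throughout, while Decr1 lost it with the mean over probes and on the second array alone, and Acox2 and Scp2 on the first array alone. No paired analysis was possible because no result comes from a test, and arrays of equal number were used together only for the differences and level gaps between mother and fetus.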
